A study of Homo sapiens with 4 samples.

Results

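HRP2, the chromatin reader encoded by HDGFL2, was the target of the knockdown in this study, and its 4-gene group comprised HDGFL2 itself, its relatives HDGF and PSIP1, and RIOX2, the gene of MINA, the protein with which the series title pairs HRP2. The rows were found by symbol, and the 4 genes were named with earlier results of these data known. All 4 stood among the 24237 genes that the authors list as mRNA, but only 2 of them, HDGFL2 and HDGF, had a row in the authors' gene table (684 genes) and in their transcript table (1040 transcripts). PSIP1 and RIOX2, the latter also looked for as MINA, had a row in neither.

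The cells were LP-1, an established human multiple myeloma line that the labels describe as B lymphoblast, and RNA was sequenced from 2 libraries of HRP2 knockdown cells and 2 libraries of non-target control cells. The guide RNA, against HRP2 or without a target, was delivered by lentivirus in both groups. The labels do not name the Cas protein, the guide, or whether cells were cloned or pooled. They leave unsaid whether replicate libraries stem from separate cultures, so any spread between these libraries may be technical. The authors' test is not given, so it is not known what spread, if any, the Q values measure. Each deposited table gives a log2 fold change, knockdown over control, and a Q value, by convention a p-value adjusted for multiple testing, for features with a Q value under 0.05 only, and such features are termed called here. The tables carry no value per library, no level and no standard error, so depth is unknown, no spread can be given, the identity of the cells could not be checked against their markers, and fewer cells of a type cannot be told apart from less RNA per cell.

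HRP2 and LEDGF, here the longer product of PSIP1, carry a PWWP domain at the amino terminus that reads methylated lysine 36 of histone H3. Both also carry an integrase-binding domain through which they hold partner proteins at transcribed genes. HDGF, hepatoma-derived growth factor, shares the PWWP domain and lacks the integrase-binding domain. MINA belongs to a different family, the JmjC oxygenases, and is known as a ribosomal protein hydroxylase.

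The kinship of the 3 PWWP genes is visible in their first coding exons, which are shown to let the relatives be compared base by base. They were read from GENCODE 29 on GRCh38. Capitals mark the bases that are the same in all 3 genes when the exons are set against each other at their last base. For HDGF the exon is that of the transcript matched to NM_001319187.1. Some other HDGF transcripts start with a different coding exon, which was not compared with the other genes.

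HDGFL2: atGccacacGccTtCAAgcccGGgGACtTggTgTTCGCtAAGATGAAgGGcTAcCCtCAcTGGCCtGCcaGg
HDGF: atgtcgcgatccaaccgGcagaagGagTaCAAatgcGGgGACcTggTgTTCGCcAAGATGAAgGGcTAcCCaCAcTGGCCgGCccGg
PSIP1: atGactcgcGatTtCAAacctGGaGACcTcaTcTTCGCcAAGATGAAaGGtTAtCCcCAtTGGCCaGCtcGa

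These exons lie at chr19:4472351-4472422 on the plus strand for HDGFL2, chr1:156751343-156751429 on the minus strand for HDGF and chr9:15510117-15510188 on the minus strand for PSIP1. The coding part was 72 bases long in HDGFL2 and PSIP1 and 87 bases in HDGF, and 42 of the 72 bases compared (58.3%) were the same in all 3. HDGFL2 was closer to HDGF (76.4% identical) than to PSIP1 (69.4%) over this exon. The longest identical run was 17 bases, between HDGFL2 and HDGF. No word of 31 bases was shared by any 2 of the 4 genes in any of their GENCODE transcripts, so a read of that length that matches 1 of these genes without mismatch does not match another of them. PSIP1 did share words with genes outside the group, between 4.3% and 21.1% of the words of its protein-coding transcripts, whereas the protein-coding transcripts of HDGFL2 and RIOX2 shared none and those of HDGF at most 2.58%.

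HDGFL2, the target, fell. Its log2 fold change was -1.37 in the authors' deposited table (gene ID 84717, chromosome 19), which is 0.388 times the control level, with Q = 2.99e-13. This is a direction that goes with the treatment labels, whereas the titles carry the letters CON in both groups. Of 323 lower genes in the authors' deposited table HDGFL2 had the smallest Q value, and of all 684 it had the second smallest, after the chaperone gene HSPA8. The next lower gene by Q value was TRIB3, a pseudokinase gene, at 4.67e-09 in the same deposited table. By size of change HDGFL2 stood further down. It ranked 41 among the 323 lower genes and 55 among all 684 by absolute log2 fold change. Its neighbours in that order show how different the Q values were at the same size: AMIGO3 at -1.38 had Q = 7.82e-05 and BBC3, a proapoptotic BCL2 family gene, at -1.36 had Q = 0.0235 in the authors' deposited table. The median log2 fold change of the called lower genes was -0.78.

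**Figure D1:**
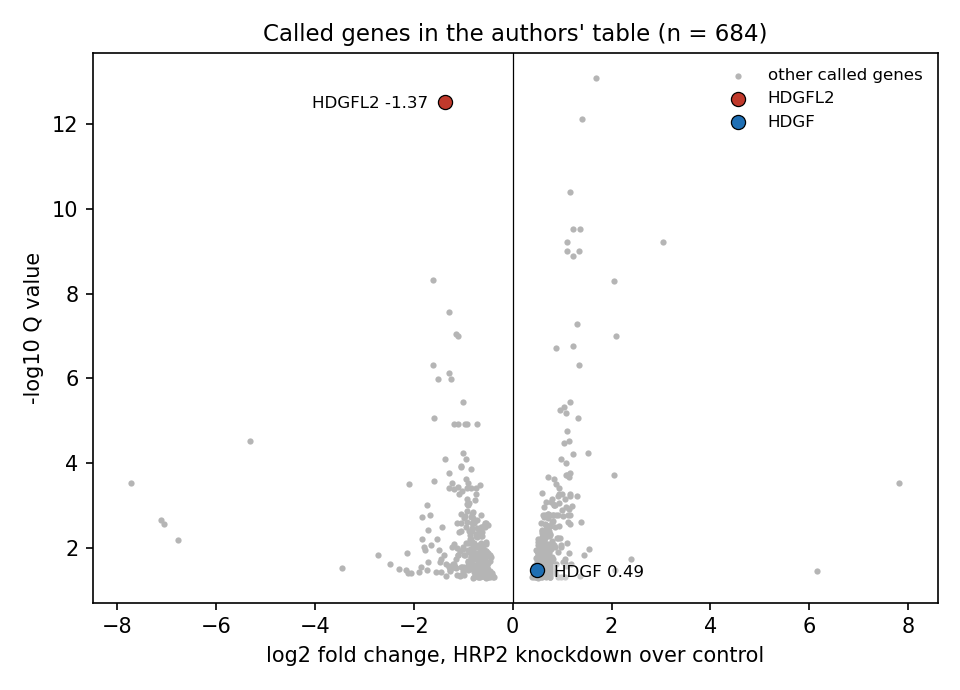
Called genes of the authors' gene table, with the log2 fold change of HRP2 knockdown over control on the x axis and -log10 of the Q value on the y axis; each point is 1 of 684 genes, and genes with a Q value of 0.05 or more are not in the table. HDGFL2 (red) lies at -1.37 near the top of the plot, and HDGF (blue) at 0.49 near the bottom of the right-hand group.

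HDGF, the relative, rose. Its log2 fold change was 0.49 in the authors' deposited table (gene ID 3068, chromosome 1), which is 1.40 times the control level, with Q = 0.0334. It ranked 326 of the 361 higher genes by size and 278 by Q value. Its neighbours in order of log2 fold change were MPZL1 (0.49, Q = 0.0324) and NCBP2 (0.49, Q = 0.0236) in the authors' deposited table. The smallest absolute log2 fold change of any called gene was 0.38 and the median of called higher genes 0.66, so HDGF stood among the smallest changes that were called. With a Q value under 0.01 HDGF would not be called, and HDGFL2 was then 1 of 4 beside 1.05% of the listed mRNA genes. Against the 2 of 4 genes called at 0.05 stood a background of 2.81%, the 682 called genes among the 24237 listed as mRNA, whether expressed in these cells or not. By direction that background was 1.32% for lower genes, with HDGFL2, and 1.49% for higher genes, with HDGF, and 52.8% of the called genes were higher. As HDGFL2 was the target, HDGF was the 1 called gene among the other 3.

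PSIP1 (gene ID 11168, chromosome 9) and RIOX2 (gene ID 84864, chromosome 3) had no value. Because genes that did not pass are missing from the authors' deposited tables, it is not known whether these genes were expressed, nor in which direction or by how much they differed. HDGFL1 and HDGFL3, which complete the family, were likewise listed as mRNA and not called, at the gene or the transcript level.

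At the transcript level HDGFL2 had 1 called transcript and HDGF had 2, in opposite directions. The RefSeq table for GRCh38.p14 holds 7 transcripts of HDGFL2, 13 of HDGF, 12 of PSIP1 and 9 of RIOX2. All 3 called transcripts were among them by accession, although the authors' annotation may have held a different set.

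The HDGFL2 transcript NM_001001520.2 lay at -1.34 on the log2 scale in the authors' deposited transcript table, 0.396 times the control level, with Q = 0.0203. The gene and transcript values differed by 0.03, the 30th smallest of 81 such differences (median 0.16) over transcripts of called genes whose log2 fold change was between -6 and 6. The Q values differed far more. HDGFL2 was second of 684 as a gene and rank 805 of 1040 as a transcript in the authors' deposited tables, and the transcript Q value was the larger one in 63 of those 81 pairs. The other curated HDGFL2 transcript with a GENCODE match, NM_032631.3, was not called. Its coding sequence has 2010 bases against 2013 in NM_001001520.2, and the coding sequences differ only by the 3 bases AGC after base 1917 of the coding sequence, which the called transcript has in addition. Of the 2251 words of 31 bases in the called transcript, 22 (0.98%) occurred in no other GENCODE transcript of HDGFL2.

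HDGF, higher as a gene, had NM_001319187.1 at 0.69 (1.62 times the control level, Q = 0.0114) and XM_011509454.2 at -9.73 (Q = 9.8e-05) in the authors' deposited transcript table. The first went in the direction of the gene and the second, a predicted model rather than a curated one, in the opposite direction. NM_001319187.1 corresponds in GENCODE 29 to a transcript whose coding sequence of 720 bases is the same as that of NM_004494.2, which was not called. The matched transcripts differ outside the coding part, the called one having an extra intron after the end of the coding sequence and a start further downstream. Of its 2043 words, 27 (1.32%) occurred in no other GENCODE transcript of HDGF, and the same GENCODE transcript is also matched to NM_001319188.1. XM_011509454.2 has no GENCODE match, so its structure is not described here.

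**Figure D2:**
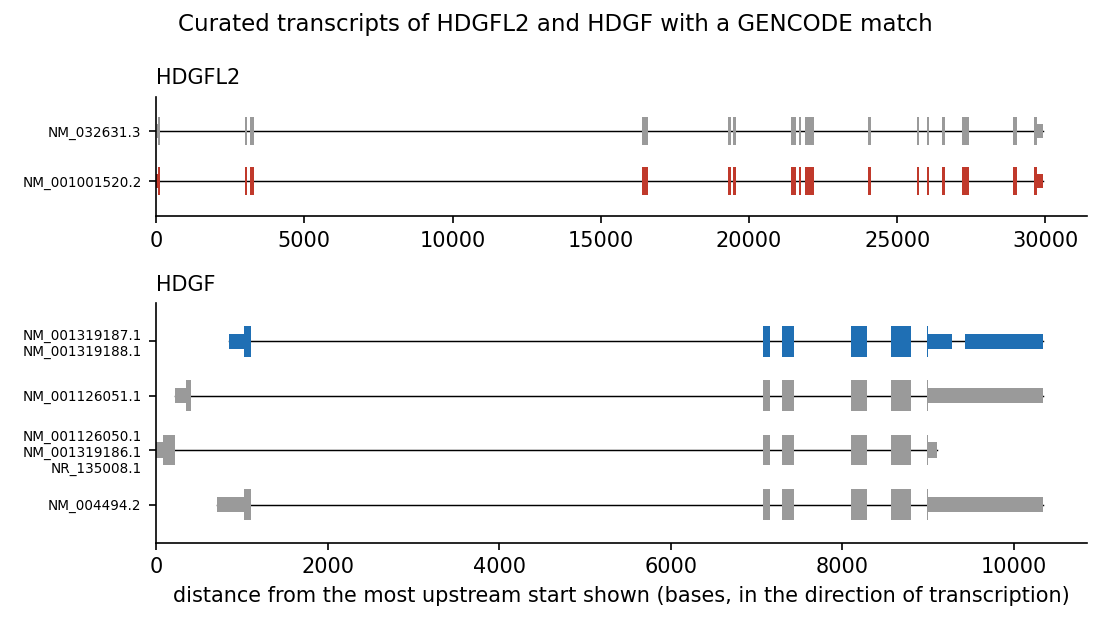
Exons of the curated HDGFL2 and HDGF transcripts that have a GENCODE match, with the distance in bases from the most upstream start shown on the x axis; tall boxes are coding, low boxes are non-coding parts of exons, lines are introns, and colour marks a match to a called transcript. The coding parts of the 2 HDGFL2 transcripts differ by 3 bases and look alike at this scale, and the HDGF transcripts differ in their first exon and in their last exons.

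The size of the lower HDGF transcript was ordinary for its table. Transcripts with an accession starting in XM changed by 6 or more in log2 fold, in either direction, in 443 of 519 cases (85.4%), and curated transcripts starting in NM in 326 of 458 (71.2%). Among the lower transcripts XM_011509454.2 ranked 97 of 510 by size. Between -13 and -6 the Q value fell almost in step with the log2 fold change (Spearman's rho = 0.83 over 399 transcripts, a description over transcripts of the same 4 libraries), which shows as narrow arms in the plot of transcripts. Above -6 the same rho was 0.18 over 94 lower transcripts. The lower HDGF transcript lay on such an arm. The 23 transcripts within 0.1 of its log2 fold change, itself included, had Q values from 2.24e-05 to 0.000884, with a median of 9.38e-05. The table gives no level, so it is not known whether this transcript was at 0 in the knockdown libraries, and no fold is given for it. Opposed transcripts were found in other genes as well. Of 136 genes with at least 2 called transcripts, 89 (65.4%) had them in both directions, and of 115 genes with exactly 2, as HDGF has, 71 did. Of the 117 called genes with any called transcript, 20 had one going against the gene and 11, HDGF included, had called transcripts both ways.

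**Figure D3:**
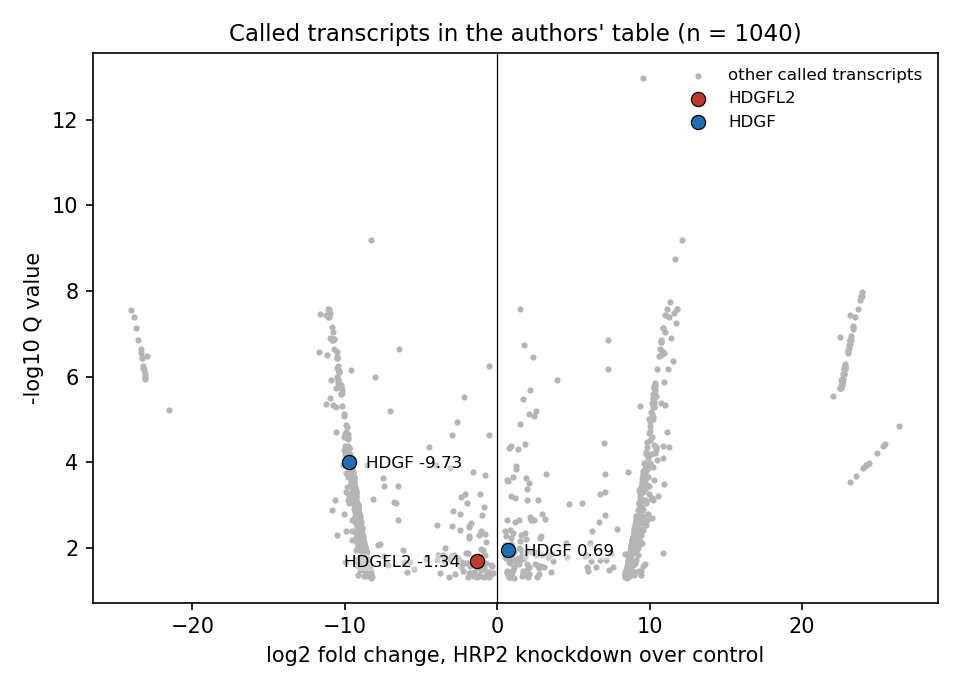
Called transcripts of the authors' transcript table, with the log2 fold change of HRP2 knockdown over control on the x axis and -log10 of the Q value on the y axis; each point is 1 of 1040 transcripts. The HDGFL2 transcript (-1.34) and the higher HDGF transcript (0.69) lie in the middle group, and the lower HDGF transcript (-9.73) lies on the left-hand arm, where Q falls with the size of the change.

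The start regions of both called genes are shown as sequence. HDGFL2 was the target of the knockdown, and a link of these letters to the direction of either gene was not tested. The windows run from 250 bases before to 50 bases after a RefSeq transcription start (GRCh38.p14). HDGFL2 has 2 such windows and HDGF has 4, and the ones printed are the window next to the first coding exon of HDGFL2, chr19:4472047-4472346 on the plus strand, and the window of HDGF whose start is nearest that of the GENCODE match of its higher transcript, chr1:156751626-156751925 on the minus strand. Capitals mark GGGCGG (the GC box), CCAAT (the CCAAT box) and CACGTG (an E-box), each on either strand; none of these matches overlapped another.

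HDGFL2: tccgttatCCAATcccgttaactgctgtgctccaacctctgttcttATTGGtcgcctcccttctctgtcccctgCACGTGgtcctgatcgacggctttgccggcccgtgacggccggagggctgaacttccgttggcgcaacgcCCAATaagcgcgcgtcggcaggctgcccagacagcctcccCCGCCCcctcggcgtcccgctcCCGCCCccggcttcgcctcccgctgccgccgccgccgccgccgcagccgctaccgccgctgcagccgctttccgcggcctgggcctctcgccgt
HDGF: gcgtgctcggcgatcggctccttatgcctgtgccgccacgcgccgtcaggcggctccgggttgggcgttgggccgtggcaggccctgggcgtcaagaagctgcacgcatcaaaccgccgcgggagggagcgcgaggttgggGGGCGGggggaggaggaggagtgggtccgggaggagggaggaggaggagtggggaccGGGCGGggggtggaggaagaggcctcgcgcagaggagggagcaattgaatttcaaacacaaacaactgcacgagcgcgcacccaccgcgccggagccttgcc

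The printed windows had 70.7% G and C and 39 CpG dinucleotides for HDGFL2 and 70.3% and 31 for HDGF, against medians of 58.7% and 14 over 35116 windows of that length. Both held 2 GC boxes, which 45% of all windows hold at least once. The printed HDGFL2 window also held 3 CCAAT boxes and 1 E-box, and the printed HDGF window held neither. Those motifs occur in 34.6% and 7.26% of all windows. These values depend on the window. The other HDGFL2 window had 9 CpG dinucleotides, 2 CCAAT boxes, no GC box and no E-box, and of the other 3 HDGF windows, with 7 to 42 CpG dinucleotides, one held 2 CCAAT boxes and another 1. TATAAA, found in 11.5% of windows, was in none of the windows of either gene. A match is a description of letters and not a bound site. In the transcripts of the members the median was 63.2% G and C over the protein-coding GENCODE transcripts of HDGFL2, 55.6% for HDGF, 44.7% for RIOX2 and 40.3% for PSIP1. Over the 677 called genes with such a value, the median of the gene values was 57.4% for lower and 46.7% for higher genes. HDGFL2 had more G and C than 81.9% of the lower genes and HDGF more than 85.7% of the higher genes. The part of base composition in the values of HDGFL2 and HDGF was not tested.

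The neighbours of the members on the chromosome were examined as well. Of the 24 nearest protein-coding genes, 3 on each side of each member, 1 was called as a gene and 0 had a called transcript, beside 2.81% and 3.62% of all listed mRNA genes, and nothing is read from so few genes. The called one was METTL25B, deposited as RRNAD1, which lies beside HDGF with MRPL24 between them. It was lower, at -0.71 on the log2 scale (0.61 times the control level, Q = 0.0271) in the authors' deposited table, whereas HDGF was higher. None of the 6 neighbours of HDGFL2 was called.

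Genes that work with or resemble HRP2 and MINA were followed on 8 lists. Of their 107 genes, members left out, 6 were called as genes (5.61%), 4 higher and 2 lower. Their median log2 fold change was 0.53, against 0.47 over all called genes. No called gene had an absolute log2 fold change under 0.38, so such a median mainly follows which direction has more genes. The background of 2.81% counts every listed mRNA gene and not only expressed ones, so the shares are not compared further. Among other PWWP domain proteins, 2 of 17 were called, both higher, and both were de novo DNA methyltransferases. In the authors' deposited table the log2 fold change was 0.57 for DNMT3A (Q = 0.0462) and 0.54 for DNMT3B (Q = 0.0107). RIOX1, the closest relative of RIOX2, was not called, and of the 10 ribosomal oxygenases and other JmjC hydroxylases only JMJD8 was, at -0.72 (Q = 0.0344, authors' deposited table).

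Of the 12 partners that bind the integrase-binding domain of LEDGF and HRP2 or belong to their complexes, none was called as a gene. The same was true of 13 enzymes of H3K36 methylation, which write or erase the mark that the PWWP domain reads, and of 15 genes of H3K27 methylation. Over all listed mRNA genes 2.81% were called, expressed or not. At that share lists this short can easily hold no called gene, so nothing is read from these counts. Of 21 elongation factors CDC73, a PAF1 complex subunit, was called at 0.52 (Q = 0.028, authors' deposited table). Of 23 subunits of the BAF complex, a chromatin remodeller, the ATPase gene SMARCA2 was lower at -0.64 (Q = 0.00515) and SMARCE1 higher at 0.57 (Q = 0.0184) in the authors' deposited table. SMARCA2 was the single one of the 6 with a Q value under 0.01.

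At the transcript level 19 of the 107 genes had a called transcript (17.8%). The share over all listed mRNA genes was 3.62%, which again counts genes that may not be expressed, and the lists were chosen with earlier results known, so nothing is read from the difference. They had 28 called transcripts, 15 higher and 13 lower, 25 of them by 6 or more on the log2 scale in either direction. Among the partners, POGZ, a zinc finger protein that binds the integrase-binding domain, had 1 transcript at 11.64 and 1 at -11.12, KMT2B, an H3K4 methyltransferase, had 1 at -6.45, and SUPT6H, a histone chaperone of elongation, 1 at -9.04 in the authors' deposited transcript table. NSD2, the H3K36 methyltransferase with a PWWP domain, had 2 higher transcripts (10.69 and 23.89) and 1 lower (-7.41) in that deposited table. All of these values were larger in size than the HDGFL2 transcript value of -1.34, and they went in both directions. As no level is given, it is not known whether these transcripts were absent from either group. Their sizes are therefore not read as folds. SMARCA2 differed from them, with a transcript at -0.93 (Q = 0.0113) beside the gene value of -0.64 in the authors' deposited tables. The other 2 transcripts under 6 were of SS18, a BAF subunit, at 1.96, and of AFF1, a super elongation complex subunit, at 2.60 in the authors' deposited transcript table. SS18 also had a transcript in the opposite direction, at -8.89 in that deposited table.

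**Figure D4:**
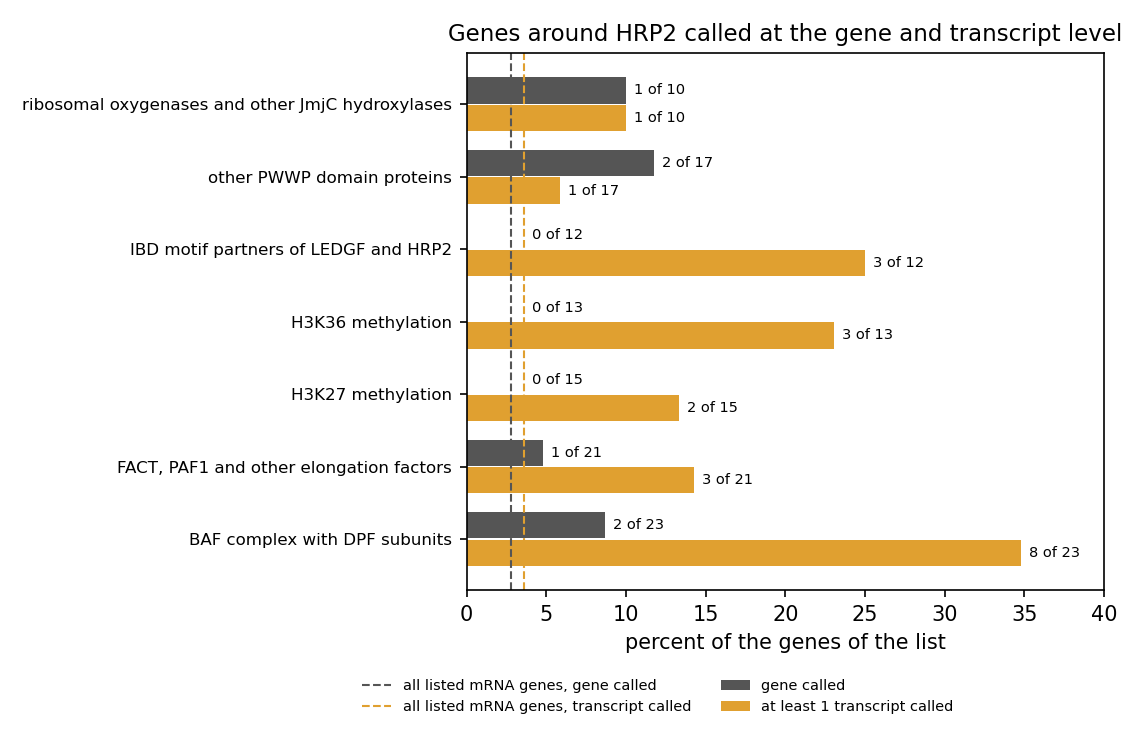
Percent of the genes of 7 lists around HRP2 that were called as genes (grey) or had at least 1 called transcript (orange), with counts beside the bars; dashed lines give the same shares over all listed mRNA genes (2.81% and 3.62%). The lists of partners, H3K36 and H3K27 methylation have no called gene and 3, 3 and 2 genes with a called transcript.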

How the data were processed

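LP-1 RNA, 2 HRP2 knockdown and 2 control libraries, was used as the authors' deposited comparisons. The submitters' processing notes name BWA, Bowtie2, RSEM and the build hg19; not given in the sources used here are roles, versions, annotation, library normalization and test. Per the file headers, values are the authors' log2 fold changes, knockdown over control, and the authors' Q values (by convention adjusted p-values), at gene and transcript level. Every deposited Q value was under 0.05 (largest 0.0495 and 0.0497). No value per library was used, so the planned edgeR or limma test was not run, depth is unknown, and no test was made; values were described with Python 3.11.15 and pandas 2.3.3.

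Symbols were matched through RefSeq (GRCh38.p14), older symbols included. GC content was the median over a gene's protein-coding GENCODE transcripts. Sequences came from RefSeq promoter windows and GENCODE 29 transcripts; these builds differ from the authors', and only sequences carry coordinates. Motif and word searches were tested on simulated data. The named genes were the members, their transcripts, neighbours in rank and position, and called members of 8 lists and of the cell type marker lists. HSPA8 and TRIB3 were named after their values were seen. Members and lists were chosen with earlier results of these data known. Alternatives were a stricter Q value (0.01), a minimum change of 1 on the log2 scale and the transcript table.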

Additional observations from a re-analysis of the deposited data

How the results depend on the processing

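HDGFL2 remained called and lower with a Q value under 0.01 and with a minimum change of 1 on the log2 scale, and its transcript gave -1.34 against -1.37. HDGF (0.49) was not called at either limit, and the transcript table gave 0.69 for one of its transcripts and the opposite direction, -9.73, for the other. Called members fell from 2 genes to 1 at either limit, and from 3 transcripts to 1 with a Q value under 0.01 (the lower HDGF transcript). Of the genes on the 8 lists, members left out, 4 were higher and 2 lower; with a Q value under 0.01 these were 0 and 1, and at the transcript level the counts were 12 with a higher and 12 with a lower transcript. Called genes overall fell from 361 higher and 323 lower to 134 and 121 with a Q value under 0.01, and to 58 and 91 with the minimum change of 1. Called transcripts fell from 530 higher and 510 lower to 343 and 314 with a Q value under 0.01. PSIP1 and RIOX2 gave no value under any alternative. No paired analysis was possible because the deposited tables give 1 comparison of the groups and no value per library; for the same reason no replicate was left out in turn, no block was fitted, and the planned normalization and filter alternatives were not run. The unknown depth limits what can be said of genes that were not called.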

Other observations

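On a list of genes of the t(4;14) translocation and of plasma cells, 6 of 15 were called, 5 lower and 1 higher. Their median log2 fold change was -0.49. The higher gene was MAF, at 0.42 (Q = 0.0265) in the authors' deposited table. With a Q value under 0.01, 3 of the 15 were called, beside 1.05% of all listed mRNA genes. Of all listed mRNA genes 2.81% were called, 1.32% lower and 1.49% higher, expressed or not. The list was chosen with earlier results known, so nothing is read from the difference in these shares. The list had 8 called transcripts, 4 higher and 4 lower, from 5 genes. Of all listed mRNA genes 3.62% had a called transcript, and nothing is read from the difference. The NSD2 transcripts given above were among the 8, and NSD2 was not called as a gene. IRF4, a plasma cell transcription factor gene at -0.63, had 1 transcript at -1.04 and 1 at 1.93 in the authors' deposited tables. Beside HDGFL2 at -1.37, the largest gene-level change on the list was that of FGFR3, at -1.14 in the authors' deposited table. FGFR3 is a receptor tyrosine kinase gene activated by the t(4;14) translocation. Markers of T and NK cells and of myeloid cells, 7 genes each, had no called gene or transcript. Of 7 earlier B cell markers, CIITA, the class II transactivator, had 1 transcript at 5.91 (Q = 0.0282) in the authors' deposited transcript table and no called gene.

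The transcript name list that accompanies the tables holds 439 names, all of them called lower transcripts. It holds the HDGFL2 transcript and the lower HDGF transcript, and not the higher HDGF transcript.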
